A study of Bos taurus with 8 samples.

Results

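The frontal cortex library was compared with the libraries of 7 other cattle tissues to describe which genes set the brain sample apart. RNA-Seq, the sequencing of complementary DNA made from total RNA, was performed on 8 tissues with 1 library each. Beside frontal cortex, these were rumen, abomasum and ileum of the digestive tract, mammary gland (parenchyma), uterus (intercaruncular), whole testes and nucleated blood cells. The study generated these data to relate DNA methylation to gene expression, and no treatment was applied. The tissues came from a Hereford cow and related animals. In the study's list of samples for methylation, the frontal cortex was from a juvenile female. In that list abomasum, ileum and mammary gland were also from juvenile females, uterus and blood cells from adult females, testes from an adult male and rumen from a male fetus. The methods of the study describe the RNA-Seq tissues as a collection similar to that of an earlier atlas. These ages and sexes may therefore not be those of the RNA libraries. Tissue, animal, age and sex cannot be told apart with 1 library per tissue. No test was therefore run, and each difference below is between libraries.

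The frontal cortex holds the cell bodies and connections of neurons, together with astrocytes, myelin-forming oligodendrocytes, microglia and blood vessels. Neurons are known for transcribing many genes with very long introns, among them genes of synaptic adhesion and ion channels. In a bulk tissue sample, fewer cells of a type and less RNA per cell cannot be told apart. The library kit does not keep the strand, so overlapping genes on opposite strands cannot be told apart. The deposited table does not pair its Ensembl transcript identifiers with gene symbols, and the labelled tissue was therefore not checked against marker genes. Genes are given below by chromosome, start and end on the UMD3.1 assembly.

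The values were FPKM, the number of fragments scaled to the length of the transcript and the depth of the library. Of 24886 loci with an identifier, 24871 genes were analysed. The other 15 had a failed estimate or too much data in pairs with frontal cortex, and 2 of them were mitochondrial loci listed at 0 in this library. For a transcript of 1000 bases, 1 FPKM stood for about 6.79 reads in frontal cortex and for 4.42 to 11.3 reads in the other libraries. Loci that overlap were deposited with the coordinates of their whole group. There were 0 partial overlaps between loci, and 7609 genes (30.6%) had the same start and end as at least 1 other locus. For these genes the span is that of the group, while 17262 genes had coordinates of their own.

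Frontal cortex expressed 12856 genes at an FPKM of at least 1. The quartiles of these genes were 4.34, 11.5 and 31.6 FPKM, and 1031 genes reached 100 FPKM. Of 17473 genes expressed in at least 1 tissue, 2791 (16%) had their highest value in frontal cortex and 2794 (16%) their lowest. The 10 most abundant genes took 8.53% of the summed FPKM in frontal cortex, against 4.88% to 20.8% in the other tissues with the same 15 loci left out. The most abundant gene lay on chromosome 24 (2485370 to 2590645), at 9930 FPKM. In the other tissues it ranged from 2.41 in whole testes to 88.8 in nucleated blood cells, with a median of 20.4. The second, on chromosome 29 (41172509 to 41175112), was at 8200 FPKM, but rumen held 8384 and the lowest tissue, uterus, 993. The third, on chromosome 11 (106244102 to 106250724), was at 5814 FPKM and ranged from 0.987 in blood cells to 1864 in mammary gland. The abundant genes of the cortex were thus a mixture, and 3 of the 10 met the rule for high genes given next.

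A gene was called high in frontal cortex where it reached 1 FPKM and where FPKM + 1 exceeded every other tissue by 5 times or more. In total 599 genes were high, 2.41% of all genes analysed. Their FPKM in frontal cortex had a lowest value of 4.49, quartiles of 21.6, 52.4 and 140, and a maximum of 9930. Their highest value in any other tissue had quartiles of 0.762, 2.50 and 7.97 FPKM. The median difference to the next tissue was 3.35 on the log2(FPKM + 1) scale, 205 genes were at 4 or more, and 93 at 5 or more. High genes held 15.8% of the summed FPKM of frontal cortex, and 0.181% to 0.540% of that of the other tissues, a direction that the rule fixes. Values near the limit lay close together. The last gene inside, on chromosome 2 (107992893 to 108002773), had 187 FPKM in frontal cortex and 36.6 in testes. The first gene outside, on chromosome 7 (19186469 to 19190452), had 49.6 FPKM in frontal cortex and 9.13 in blood cells.

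**Figure D1:**
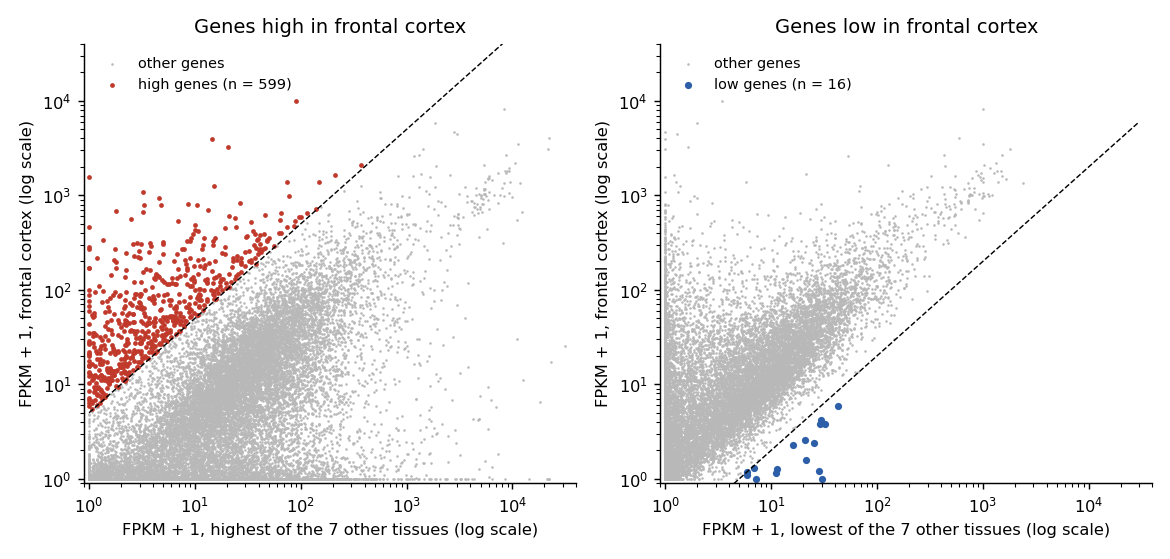
Each point is a gene, with FPKM + 1 in frontal cortex on the vertical log axis and the highest (left) or lowest (right) of the 7 other tissues on the horizontal log axis; dashed lines mark a difference of 5 times. The 599 high genes spread from 4.49 to 9930 FPKM, while 16 genes lie below the line on the right.

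The rate of high genes depended on the level in frontal cortex. From 4 to 10 FPKM, 42 of 2938 genes (1.43%) were high. From 10 to 100 FPKM the count was 361 of 5894 (6.12%). From 100 to 1000 FPKM it was 186 of 963 (19.3%), and at 1000 or more 10 of 68 (14.7%). A gene at an FPKM under 4 could not be high by construction, because 1 was added to each value, and one at 4 to 10 FPKM had to be near or under 1 FPKM elsewhere. Reads set the precision at the low end. For a transcript of 1000 bases, 4 FPKM stood for about 27 reads in this library, with an exact 95% Poisson interval of 17.8 to 39.3 for counting error only.

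High genes fell into classes by their level elsewhere. In 173 of them (28.9%) every other tissue was under 1 FPKM, and 33 of these were listed at 0 in all 7. Another 358 reached 1 FPKM in 1 to 6 other tissues, and 68 did so in all 7. The other tissue with the highest value was whole testes for 185 high genes, uterus for 105, ileum for 101, mammary gland for 59, rumen for 50, abomasum for 35 and nucleated blood cells for 31. In genes under 1 FPKM in every other tissue, this order can rest on few reads. For a transcript of 1000 bases, 3 reads stood for 0.264 FPKM in rumen and for 0.679 in mammary gland. Testes was next for 32.7% of the 566 high genes not listed at 0 elsewhere, close to its 31.6% among 12234 genes expressed in frontal cortex but not high. Ileum was next for 17.8%, against 4.41% of the genes not high, and uterus for 18.6%, against 11.1%. The shares were 5.48% against 18.7% for blood cells and 8.83% against 17.5% for rumen. For a high gene the highest other tissue is always below the cortex, while for a gene not high it could be above the cortex. The shares of high genes and of genes not high therefore do not measure the same thing. They are a description over genes of the same 8 libraries. The median FPKM of the 599 genes was 1.08 in testes, 0.8 in ileum and 0.544 in uterus, and lower in mammary gland (0.314), abomasum (0.304), rumen (0.247) and blood cells (0.0315). Blood cells listed 283 of them at 0, and testes 81. Without the limit of 5 times, 361 genes were expressed at 1 FPKM or more in frontal cortex alone, with a median of 5.29 FPKM. Leaving out testes raised that number to 632.

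The highest difference was that of ENSBTAT00000050937 on chromosome 19 (35234560 to 35263546), with 1551 FPKM in frontal cortex. The second was that of ENSBTAT00000050034 on chromosome 21 (66321442 to 66349414), with 466 FPKM. Each had a listed value of 0 in the 7 other tissues and shared their coordinates with other loci. At the position on chromosome 19, 1 partner locus had 26.8 FPKM in frontal cortex and 25.7 to 62.4 in the other tissues, and another had 9.01 against 3.45 to 10.1. Neither partner stood out in the cortex. At the position on chromosome 21, the partner had 162 FPKM in frontal cortex and 0 to 1.21 elsewhere, so it shared the pattern.

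Shared coordinates were no more common among high genes than among all genes, with 168 of 599 (28.0%) against 30.6%. They were found in 17 of the 33 high genes listed at 0 in every other tissue. When the FPKM values of all genes with the same coordinates were summed, 521 of the 586 positions that held a high gene remained high. Of the 16 positions of the genes listed at 0 elsewhere, 9 remained high. A further 6 high genes spanned under 300 bases, all with coordinates of their own and all listed at 0 elsewhere. Their cortex values of 6.25 to 267 FPKM corresponded to 0.867 to 2.82 reads, under the limit of 3 reads that a count of 0 allows. A difference from the other tissues was not detectable for them at this depth.

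Among high genes with coordinates of their own, chosen for display after their values were seen, several had over 100 FPKM against almost none elsewhere. A gene on chromosome 7 (63575254 to 63641115) had 688 FPKM in frontal cortex, and the other tissues ranged from 0 in blood cells to 0.8 in ileum, with a median of 0.317. On chromosome 19 (45241325 to 45250609) a gene had 1092 FPKM, against 0 to 2.2 elsewhere and a median of 0.578. A gene of 1450 bases on chromosome 18 (24134095 to 24135544) had 3979 FPKM, against 0 in abomasum and blood cells and 13.4 in ileum. In all of them the cortex lay far above the highest other tissue. On chromosome 13 (2449018 to 2461032) a gene had 338 FPKM in frontal cortex, 0.364 in testes, 0.0509 in rumen and 0 in the other 5 tissues. On chromosome 22 (15190718 to 15196325) a gene had 788 FPKM, against 2.32 in abomasum, 1.32 in testes, 0.838 in ileum and 0 in the rest.

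A smaller set was expressed in every tissue and raised in frontal cortex. There were 43 such genes with coordinates of their own. The gene with the largest difference among them, on chromosome 11 (106674869 to 106712975), had 933 FPKM in frontal cortex and 1.01 to 3.62 elsewhere. Another, on chromosome 7 (4944325 to 4950010), had 528 FPKM, against 1.89 to 5.89, and one on chromosome 19 (20588061 to 20591570) had 1397 FPKM, against 4.79 in rumen to 73.0 in blood cells.

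A gene was called low in frontal cortex where every other tissue had an FPKM of at least 1 and an FPKM + 1 at least 5 times that of the cortex. In total 16 genes (0.0643%) were low by this rule. Of 6256 genes at 4 FPKM or more in all 7 other tissues, the level a gene needs to be low, these 16 were 0.256%. Their median FPKM was 0.444 in frontal cortex, with values up to 4.84, and 7 of them were still at 1 or more there. The lowest other tissue had a median of 20.1 FPKM. The count rose to 44 without testes and to 32 without blood cells, and to 66 and 78 with pseudocounts of 0.1 and 0.01 in place of 1. The mirror rule gave 244 low genes in blood cells, and 1 to 7 in each of the remaining tissues.

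Of the low genes, ENSBTAT00000059680 on chromosome 25 (1517626 to 1522722) had the largest difference. It was listed at 0 in frontal cortex and ranged from 29.1 FPKM in testes to 191 in rumen, with a median of 98.5. It shared its coordinates with 3 other loci, of which 1 was at 2203 FPKM in frontal cortex and 1337 to 10611 elsewhere. The position as a whole was therefore not silent in the cortex. The next, ENSBTAT00000066155 on chromosome 20 (71898948 to 71904142), had coordinates of its own, with 0.196 FPKM in frontal cortex. The other tissues ranged from 27.1 in abomasum to 787 in mammary gland, with a median of 53.8.

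Some low genes varied less among the other tissues. One on chromosome 4 (52476251 to 52532254) had 0.596 FPKM in frontal cortex and 20.4 to 129 elsewhere, and another on chromosome 14 (39369425 to 39402612) had 1.26 against 15.2 to 65.9. The next, on chromosome 3 (107699436 to 107708069), had 2.82 FPKM against 31.0 to 109. Others ranged widely. On chromosome 21 (71594102 to 71596570) a gene had 3.21 FPKM in frontal cortex, 28.8 in rumen, 76.7 in testes and 4715 in ileum. On chromosome 15 (29441565 to 29452179) a gene had 0.291 FPKM in frontal cortex, 5.82 in testes and 560 in blood cells. Testes was the lowest other tissue for 5 of the 16 genes, and rumen and blood cells for 3 each.

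**Figure D2:**
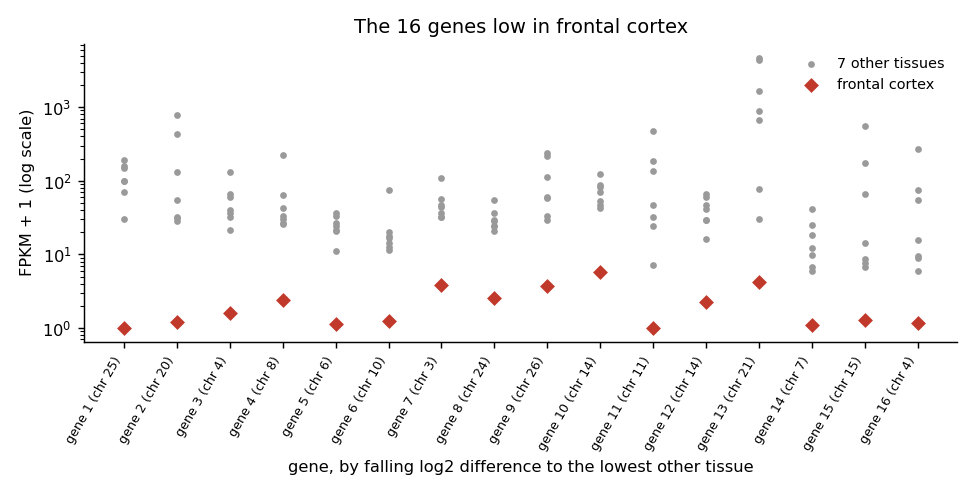
FPKM + 1 on a log axis for the 16 genes low in frontal cortex, with the cortex as a red diamond and each other tissue as a grey point. In every gene the diamond lies below all 7 points, at FPKM values of 0 to 4.84, while the lowest grey points have a median of 20.1.

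Frontal cortex was next compared with each tissue in turn. These comparisons share the cortex library. The Pearson correlation across 17473 expressed genes, given as a description, was highest with uterus (r = 0.714), followed by mammary gland (0.692), rumen (0.685), ileum (0.654), abomasum (0.617), blood cells (0.569) and testes (0.499). Against uterus, 1324 genes (5.32%) were at least 5 times higher in frontal cortex and 837 (3.37%) were lower. The counts against mammary gland were 1442 higher (5.80%) and 864 lower (3.47%). Against rumen, 1590 genes were higher (6.39%) and 1051 lower (4.23%). Ileum was the most even pair, with 1437 higher (5.78%) and 1334 lower (5.36%). Against abomasum, 1689 genes were higher (6.79%) and 1249 lower (5.02%). The count of higher genes was largest against blood cells, at 2368 (9.52%), with 1424 lower (5.73%). In testes the balance was the other way, with 1414 genes higher (5.69%) and 2719 lower (10.9%) in frontal cortex.

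**Figure D3:**
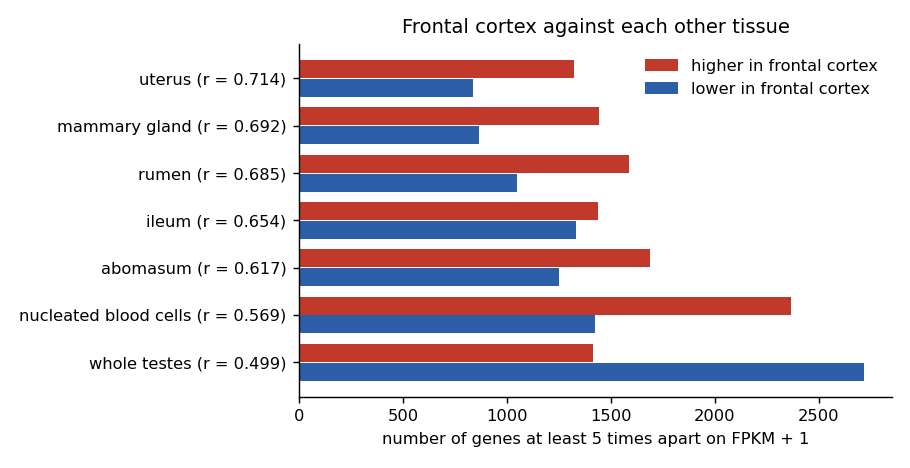
Number of genes at least 5 times higher (red) or lower (blue) in frontal cortex than in each other tissue, on FPKM + 1, ordered by the Pearson r of log2(FPKM + 1) across genes. Testes is the tissue with more genes lower (2719) than higher (1414) in the cortex.

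Genes that frontal cortex shared with a single other tissue were mostly shared with testes. In 100 of the 24871 genes analysed, both cortex and testes were at least 5 times above the 6 remaining tissues. The same count was 13 with uterus, 13 with rumen, 8 with blood cells, 5 with mammary gland, 5 with abomasum and 2 with ileum. Testes also had the most high genes of its own, 1645 by the same rule, and the highest value in 5388 of 17473 expressed genes. Genes that testes shared with a single tissue other than the cortex were not counted. The count of 100 can therefore not be read as particular to the cortex.

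Span was not used to choose the high genes, and the length of a transcript enters an FPKM only through its exons. Over all coordinates the median span was 28366 bases for high genes and 29423 bases for genes expressed in frontal cortex but not high. For genes with coordinates of their own the medians were 19828 and 22117 bases. High genes were thus not longer in the middle of the range. They differed in the tail. Of the high genes with coordinates of their own, 77 of 431 (17.9%) spanned at least 100 kb, against 931 of 8360 (11.1%) of the other genes expressed in frontal cortex. At least 300 kb was spanned by 20 (4.64%), against 116 (1.39%).

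The share of genes that were high was then followed across span classes, over genes with coordinates of their own that were expressed in at least 1 tissue. Exact 95% binomial intervals are given for the spread of counts only, since genes are not replicates of a tissue. In frontal cortex the share was 3.57% (2.82 to 4.45) under 5 kb, 3.69% (3.11 to 4.33) from 5 to 20 kb and 2.93% (2.46 to 3.45) from 20 to 100 kb. It was 5.27% (4.02 to 6.78) from 100 to 300 kb and 12.3% (7.66 to 18.3), or 20 of 163 genes, at 300 kb or more. In testes it ran the other way, from 12.1% under 5 kb to 4.29%, or 7 of 163 genes, at 300 kb or more. Blood cells had 1 high gene in the longest class, and the other 5 tissues had 0 of 163, with an exact upper limit of 2.24%.

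**Figure D4:**
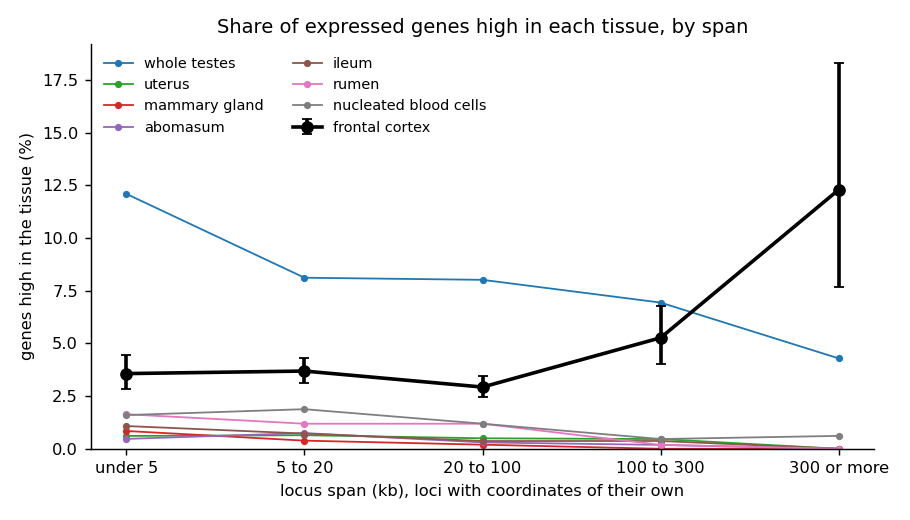
Percentage of genes called high in each tissue by locus span, for genes expressed in at least 1 tissue with coordinates of their own; bars on the black frontal cortex line are exact 95% binomial intervals. The cortex lies between 2.93% and 3.69% in the classes under 100 kb, at 5.27% from 100 to 300 kb and at 12.3% at 300 kb or more, where testes is at 4.29%.

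The order of tissues in the longest class depended on the coordinates. With shared coordinates included, 50 of 668 genes (7.49%) of 300 kb or more were high in frontal cortex and 69 (10.3%) in testes. Over all 17473 expressed genes the shares were 3.43% in frontal cortex and 9.41% in testes. A short gene inside a long group is counted as long there. Over the 163 genes with coordinates of their own, the median level was 5.36 FPKM in frontal cortex and 3.33 in testes. It was 2.71 in uterus, 2.19 in ileum and 2.18 in mammary gland, and lowest in abomasum (1.65), rumen (1.43) and blood cells (0.167). The highest value was in frontal cortex for 59 of them (36.2%), in testes for 39 and in any other tissue for 7 to 19. With a limit of 2 times, 41 (25.2%) were high in frontal cortex and 25 (15.3%) in testes. Over all 11868 expressed genes with coordinates of their own that limit gave 7.92% and 17.1%. The locus limits came from transcripts that the authors' software merged over these libraries, and the effect of this merging on the spans was not tested.

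The 20 long genes lay on 16 chromosomes. Their FPKM in frontal cortex had a minimum of 5.36, a median of 31.5 and a maximum of 140, and in the next tissue they had at most 10.1. Testes was next for 12 of them. The longest spanned 686906 bases on chromosome 1 (139155631 to 139842536), with 30.2 FPKM in frontal cortex. It was at 1.79 FPKM in testes, 0.934 in ileum and 0 in abomasum and blood cells. A gene of 674039 bases on chromosome 10 (55715563 to 56389601) had 11.6 FPKM in frontal cortex and at most 0.0520 elsewhere. On chromosome 2 (41791626 to 42444633) a gene had 21.6 FPKM, against 0.886 in testes and a median of 0.0392. The most abundant of these long genes lay on chromosome 5 (8442640 to 9064801), with 140 FPKM in frontal cortex, 3.50 in mammary gland and 0 in blood cells. In these 4 genes no other tissue exceeded 3.5 FPKM.

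The 5 longest high genes of all shared their coordinates with other loci. On chromosome 6 (41709362 to 43023819), 2 high genes lay in the same group, with 12.4 and 11.5 FPKM in frontal cortex. The first was listed at 0 elsewhere and the second had at most 0.712, in ileum. A gene in a group on chromosome 19 (16353233 to 17563055) had 23.4 FPKM in frontal cortex and at most 0.695 elsewhere. In a group on chromosome 20 (61305617 to 62428538) a gene had 66.4 FPKM, against 1.18 in testes and at most 0.212 in the other tissues. The last, in a group of 12 loci on chromosome 6 (106483716 to 107356158), had 65.2 FPKM and 0.837 to 9.93 elsewhere.

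Along the genome, high genes were spread over all numbered chromosomes and X. Of the genes expressed in at least 1 tissue, the share that was high ran from 1.62% on chromosome 28 and 1.75% on chromosome 1 to 4.61% on chromosome 2. Chromosome 5 had the most high genes, 41, followed by chromosome 18 with 40. On X, 21 of 664 expressed genes (3.16%) were high, against 576 of 16795 (3.43%) on the autosomes.

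In fixed windows of 1 Mb, 451 of 2537 windows with a gene held at least 1 high gene, 70 held exactly 2, and 30 held at least 3. Genes with coordinates of their own alone gave 13 such windows. The 30 windows held 100 high genes, 16.8% of those on chromosomes. They were also dense in genes, with a median of 40.5 genes against 6 in all windows, and 8.53% of their genes were high, against 2.41% of all genes, a difference that the choice of windows fixes. Runs of neighbours were short. Counted over distinct positions, 66 of 584 positions with a high gene (11.3%) had another next to them, in 30 runs of 2 and 2 runs of 3. Of the 20057 positions without a high gene, 1080 (5.38%) lay next to one with a high gene.

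Beside 1 window with 5 high genes, 8 windows tied at 4, and the 4 of these with the largest summed log2 difference to the next tissue are described. The window with the most high genes lay near the start of chromosome 25, from 1000001 to 2000000, with 5 high genes among 69. In frontal cortex these were at 130, 126, 79.1, 74.4 and 48.7 FPKM. The highest other value was 22.7, in uterus, for the first and 12.1, in ileum, for the third. The gene at 74.4 FPKM spanned 127 bases and is among the 6 short genes named above that rest on under 3 reads. Without it the window held 4 high genes, as many as the 8 tied windows. The window before it, from 1 to 1000000, held 4 high genes, at 561, 217, 78.7 and 49.8 FPKM. The strongest of these (569058 to 605515) was at 1.49 FPKM in testes and 0 in mammary gland. A further window of chromosome 25, from 26000001 to 27000000, held 4 high genes at 110, 94.8, 43.5 and 20.2 FPKM. Its genes at 110 (26614815 to 26618147) and 94.8 FPKM (26619698 to 26641399) were neighbours, with at most 0.254 and 0.770 FPKM in any other tissue.

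On chromosome 18, the window from 46000001 to 47000000 held 4 high genes at 448, 239, 171 and 117 FPKM. The gene at 171 FPKM (46184320 to 46200720) had at most 0.814 FPKM elsewhere, and that at 448 FPKM (46754202 to 46765215) had 18.2 in testes. On chromosome 3, the window from 14000001 to 15000000 held 4, at 176, 153, 136 and 120 FPKM. Those at 176 (14223569 to 14241669) and 136 FPKM (14254486 to 14259736) were next highest in testes, at 8.88 and 3.61, and both had a median of 0 over the other tissues. In all 21 genes of these windows the cortex lay above every other tissue, as the rule requires, but the level elsewhere differed from gene to gene. Of these genes 6 shared their coordinates with other loci, among them those at 561 and 171 FPKM.

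**Figure D5:**
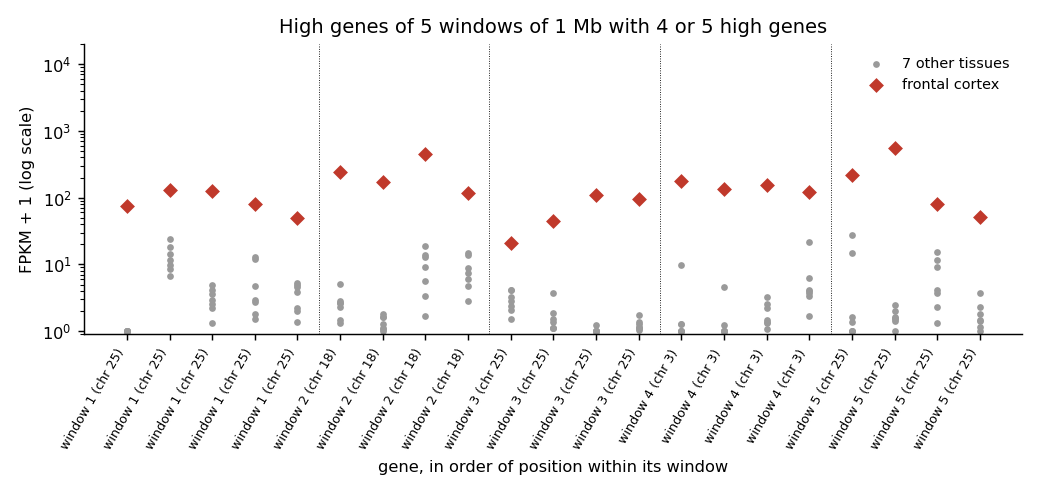
FPKM + 1 on a log axis for the 21 high genes of 5 windows of 1 Mb, the window with 5 high genes and 4 of the 8 tied at 4, chosen by summed log2 difference, with frontal cortex as a red diamond and each other tissue as a grey point; dotted lines separate windows. Cortex values run from 20.2 to 561 FPKM, and the other tissues reach 26.4 at most.

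The 2 runs of 3 lay on chromosomes 18 and 22. On chromosome 18, 3 neighbouring genes (62028035 to 62098260) had 161, 128 and 55.8 FPKM in frontal cortex. The first and second reached 7.35 and 8.15 FPKM in uterus, while the third had at most 0.123, in ileum. On chromosome 22, 3 neighbouring positions (54996173 to 55714644) had 63.3, 35.4 and 66.3 FPKM in frontal cortex and at most 2.33, 1.85 and 2.08 elsewhere. The first of these spanned 305908 bases. The first and the second each shared their coordinates with another locus.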

How the data were processed

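Groups follow the tissue given in each label. According to the methods of the study and the submitters' processing notes, the authors filtered single-end reads, aligned them to UMD3.1 with TopHat2 2.0.13 and ran Cufflinks at default parameters. The deposited values are FPKM, which the authors' software scales between libraries. The authors' fold changes, test statistics, p-values and q-values were not used. Starts, counted from 0 in the table, were raised by 1. FPKM was identical in all 28 pairs (0 loci differed). Loci without an identifier (11915) and 15 loci with a failed estimate or too much data in pairs with frontal cortex were left out. Folds are on FPKM + 1 (pseudocount 1) and understate the difference of low genes.

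Read numbers were recovered from loci of 88 to 130 bases without an identifier, with fragment lengths of mean 200 and SD 80 bases and none under 87. The scaled depth was 9347000 reads in frontal cortex and 6082000 to 15611000 in the other libraries. At these depths 97.7% to 100% of the values were within 0.03 of a whole number. Loci with an identifier follow the model less exactly, and the depth is not the number of mapped reads.

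Members, rules and alternatives were chosen with earlier results of these data known. Without symbols, the rule for named genes was the 2 high and 2 low genes with the largest differences, and by position the 5 longest high genes, the 3 most abundant genes and the genes of the 5 windows with the most high genes (ties by summed log2 difference). Other genes given by position were chosen after their values were seen, as was the separation of shared coordinates. Python 3.11.15, pandas 2.3.3, scipy 1.17.1 and matplotlib 3.10.9 were used.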

Additional observations from a re-analysis of the deposited data

Results flagged for a closer look

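Outside the genes analysed, 428 of 11915 loci without an identifier (3.59%) met the rule for high genes in frontal cortex, and 4 met that for low genes. Of the 428, 177 were listed at 0 in all other tissues, the median span was 1309 bases, and 50 shared coordinates with another locus. The reads behind these loci are not given here. As with the short genes above, a value at a short locus can rest on few reads, and a 0 elsewhere is then not a detectable difference. In total 197 lay within 5 kb of a gene, and for 59 of these (29.9%) the nearest gene was itself high. Among the loci without an identifier at 1 FPKM or more in frontal cortex that were not high, 1935 lay within 5 kb of a gene, and the nearest gene was high for 88 of them (4.55%).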

How the results depend on the processing

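No paired analysis was possible because there was a single library for each tissue. Counts and shares were taken as held within 1.5 times its value, the mean r within the SD of its 7 pairs (0.0769), the median span between its binomial limits of 22877 and 35218 bases, and the percentage of long genes within its binomial interval. Of 85 alternatives, 3 could not move a value by construction (no FPKM threshold for high or low genes, and leaving out mitochondrial loci, which were already left out). Of the other 82, 58 held by these limits, and the cause of the other changes was not tested unless given. A fold of 2 admits more by construction, with 1343 high genes, 314 low genes, 124 windows and 25.2% of long genes. A fold of 10 admits fewer, with 307 high, 4 low, a median span of 21374 bases and 4.91% of long genes. Against the median of the other tissues there were 1478 high and 487 low genes. Pseudocounts of 0.1 and 0.01 gave 66 and 78 low genes. Genes expressed in frontal cortex only numbered 624 at 5 FPKM. Leaving out the other tissues 1 at a time gave 616 to 782 high genes, 16 to 44 low genes and 371 to 632 genes of the cortex only, each highest without testes. By construction, leaving out a tissue can only add to these counts. The percentage of long genes was then 12.3% to 14.7%, and the median span 28000 to 29101 bases. Without a filter the mean r rose from 0.633 to 0.752. Shorter windows, windows of 2 Mb and a minimum of 4 high genes gave 18, 48 and 9 windows. The number of windows held in 1 of 6 alternatives. The 50 most abundant genes held 19.8% of summed FPKM. Alternatives added after the data had been seen concerned shared coordinates and the percentage of long genes. Without such loci there were 431 high genes, 13 windows and a median span of 19828 bases, and with them 7.49% of long genes were high.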
